A study of Tigriopus californicus with 9 samples.

Results

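Vitellogenin was followed through 1 of 13758 features measured by RNA sequencing in the intertidal copepod Tigriopus californicus. The feature is SD_As4_Contig1764cap (Contig1764cap below), chosen by its identifier and annotated as vitellogenin in the deposited files. It was measured in polyA RNA of 9 libraries, and every library was made from 400 to 500 pooled animals, with all developmental stages mixed, after 2 h at 20 °C. The groups were the San Diego population (SD, 3 libraries), the Santa Cruz population (SCN, 2 libraries), hybrids with SD mothers and SCN fathers (SDf x SCNm, 2 libraries) and hybrids with SCN mothers and SD fathers (SCNf x SDm, 2 libraries). Hybrids descended from virgin females of one population mated to males of the other, and were bred through F1 and F2 to F3. The titles give the cross of each library, although the 2 libraries titled SCNf x SDm carry the reverse cross in another label. The labels do not give the number of females or of egg-bearing females in a pool, nor do they say that replicates were separate cultures. The p-values below therefore speak only of the spread among these libraries, which may be technical.

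Vitellogenin is the precursor of the main yolk proteins of egg-laying animals. It belongs to the large lipid transfer proteins, is made by mature females, and is taken up by growing oocytes through a receptor of the low-density lipoprotein receptor family. Tigriopus females carry their fertilized eggs in an external sac. The amount of vitellogenin transcript in a mixed pool was read here as a possible guide to reproducing females, which was not tested. In a pool, fewer reproducing females and less transcript per female cannot be told apart.

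Sequencing run and group were entangled. Run 1 held SD replicate 1 with SCN replicate 1, run 2 held SD replicate 2, and run 3 held SD replicate 3 with SCN replicate 2. Run 4 held SDf x SCNm replicate 1, and run 5 the 3 remaining hybrid libraries, so that an effect of run cannot be told apart from one of hybrid origin. Recovered depth was 0.981 and 1.71 M reads in the run 3 libraries and 3.99 to 17.1 M reads in the other 7. The run 3 libraries held 7.56% (SD replicate 3) and 8.21% (SCN replicate 2) of features at 0 reads, against at most 0.670% elsewhere. Several of the results that rest on them, but not all, are also given without them.

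Contig1764cap was among the most abundant transcripts of every library except SCN replicate 2. Levels are in RPKM, a read count divided by contig length and library depth. In the SD libraries it stood at 3655, 4570 and 4262 RPKM. In the SCN libraries it stood at 8155 and 1551 RPKM. In the hybrids it stood at 10806 and 7147 RPKM in SDf x SCNm and at 7403 and 7858 RPKM in SCNf x SDm. The SD libraries were close to each other, 1.25-fold from lowest to highest, the hybrids spanned 1.51-fold, and the SCN libraries were 5.26-fold apart and held both the lowest value of all and the one next to the highest.

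These levels rest on 3165 reads in SCN replicate 2, 4986 in SD replicate 3 and 29048 to 128753 in the other 7 libraries. The counting error is 1.78% of the value at most, far below the distances between libraries, and covers counting only. The transcript took 0.185% of the reads of SCN replicate 2 (exact Clopper-Pearson 95% interval 0.179 to 0.192%) and 1.28% of those of SDf x SCNm replicate 1 (1.27 to 1.29%). By RPKM it ranked 3 among all features in SDf x SCNm replicate 1, 9 in SCN replicate 1, between 12 and 25 in the other 6 SD and hybrid libraries, and 153 in SCN replicate 2. The highest library held 6.97 times the level of the lowest, and 83.4% of all features had a smaller range.

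**Figure D1:**
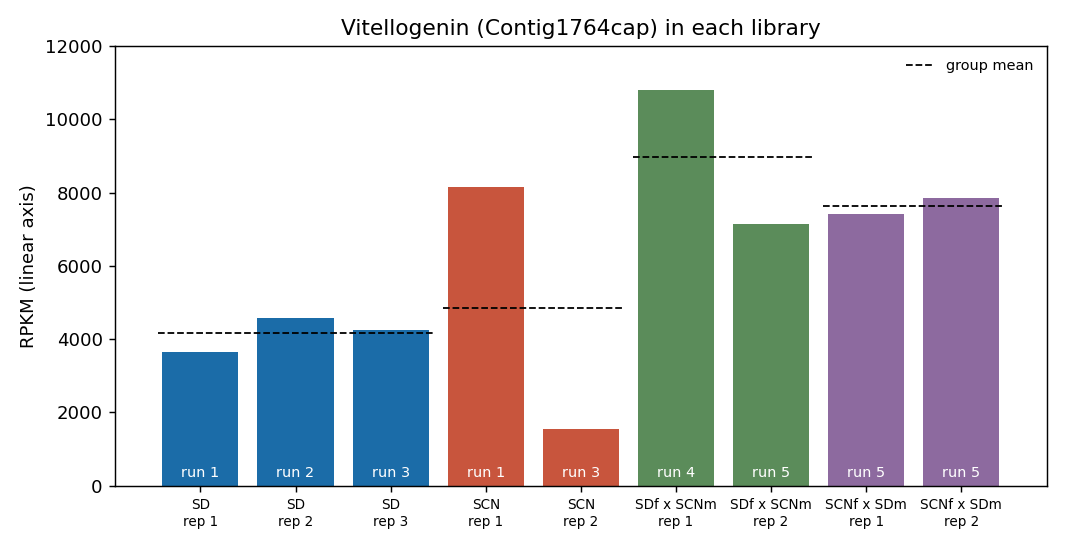
RPKM of vitellogenin (Contig1764cap) in each of the 9 libraries (bars, linear axis from 0), with the sequencing run written in each bar and the arithmetic mean of each group as a dashed line. The 4 hybrid libraries lie between 7147 and 10806, above the 3 SD libraries (3655 to 4570), while the 2 SCN libraries lie at 8155 and 1551.

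By group mean the order was SDf x SCNm (8977 ± 2587 RPKM, standard deviation, n = 2), SCNf x SDm (7630 ± 322, n = 2), SCN (4853 ± 4670, n = 2) and SD (4162 ± 466, n = 3). No neighbours in that order were separated beyond their spread. The ranges of the reciprocal crosses overlapped, SCN replicate 1 lay above both SCNf x SDm libraries, and the SCN range enclosed all 3 SD libraries.

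The first comparison asked whether the 2 populations differed. Vitellogenin did not pass the threshold between SD and SCN, with a log2 difference of 0.22 (SE 0.68, 95% interval -1.28 to 1.72; limma on log2(RPKM + 1), Benjamini-Hochberg adjusted p over all features = 0.894). In this comparison 0.429% of features passed an adjusted p of 0.05, 0.174% higher in SD and 0.254% lower, and the median log2 difference over all features was 0.23. The interval runs from 0.411-fold to 3.30-fold and so leaves a difference of either sign. The direction itself depended on the averaging, since the arithmetic mean was 1.17 times higher in SCN and the geometric mean was higher in SD (4145 against 3557 RPKM). Within runs the sign turned. In run 1 the SCN library held 2.23 times the level of the SD library, and in run 3 the SD library held 2.75 times the level of the SCN library, with 1 library of each population in each run and hence no test. Without SCN replicate 2 the log2 difference was -0.98, and without both run 3 libraries it was -0.997.

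The second comparison set the hybrids against their parents. All 4 hybrid libraries lay above all 3 SD libraries, the lowest hybrid at 1.56 times the highest SD library. A hybrid range wholly above the SD range was found for 16.5% of all features. Against SD the hybrids were 1.98-fold higher (log2 0.98, SE 0.57, 95% interval -0.28 to 2.24; limma adjusted p = 0.377; 1.6% of features passed in this comparison). This did not pass the threshold.

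Against SCN the hybrids overlapped, because SCN replicate 1 lay above 3 of the 4 hybrid libraries. The log2 difference was 1.2 (SE 0.64, 95% interval -0.22 to 2.63; limma adjusted p = 0.386; 0.0145% of features passed). It rested on SCN replicate 2. Without that library the log2 difference was 0.0056, and without SCN replicate 1 it was 2.40 and passed the threshold (adjusted p = 0.0156). In that setting 28.8% of all features passed, and the lone SCN library left is assumed to vary like the other groups.

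Against the midparent, the point halfway between the SD and SCN averages in log2(RPKM + 1), the hybrids stood 2.13-fold higher (log2 1.09, SE 0.50, 95% interval -0.02 to 2.21). The p was 0.0539 before adjustment and 0.311 after it (limma, Benjamini-Hochberg), and 0.8% of features passed. Without SCN replicate 1 the log2 difference was 1.69 (adjusted p = 0.0163) in a setting where 21.7% of all features passed, and without SCN replicate 2 it was 0.49 (adjusted p = 0.630). A two-sided exact permutation test of the 4 hybrid against the 5 parental libraries gave a mean log2 difference of 1.07 and p = 0.0635, where the smallest p that the 126 splits allow is 0.0159. Without both run 3 libraries that difference was 0.67, with an exact permutation p of 0.229.

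The third comparison set both directions of the cross against each other, which differ in the population of the mother. The log2 difference of SDf x SCNm minus SCNf x SDm was 0.20 (SE 0.74, 95% interval -1.44 to 1.85; limma adjusted p = 0.9999). In limma 0 of 13758 features (0.0%) passed here, with 39 at an unadjusted p under 0.05. Without SDf x SCNm replicate 1, the only hybrid library of run 4, the log2 difference was -0.094.

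The files name 4 more contigs as vitellogenins. Contig1761cap (a vitellogenin fused with superoxide dismutase, an antioxidant enzyme) stood at 3876, 8742 and 3048 RPKM in SD, 11449 and 753 in SCN, 8653 and 8238 in SDf x SCNm, and 9759 and 8316 in SCNf x SDm. Contig1760cap (vitellogenin 2) stood at 2692, 14118 and 1346 RPKM in SD, 7755 and 397 in SCN, 4611 and 11498 in SDf x SCNm, and 13737 and 5550 in SCNf x SDm. All 5 contigs were lowest in SCN replicate 2.

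Contig1763cap (vitellogenin 1) stood at 2138, 3210 and 1463 RPKM in SD, 5261 and 410 in SCN, 3716 and 5139 in SDf x SCNm, and 5389 and 3103 in SCNf x SDm. Contig743cap (vitellogenin-like protein) stood at 2550, 3203 and 1302 RPKM in SD, 2972 and 488 in SCN, 1530 and 2403 in SDf x SCNm, and 2572 and 1318 in SCNf x SDm. The coding lengths recovered for the 5 contigs run from 453 bases (Contig1760cap) to 2667 (Contig743cap), with 1164 for Contig1764cap. Vitellogenins are long proteins, so a contig may hold only part of a transcript, and the sources do not say whether reads could be shared between the contigs. Their separate levels are uncertain to that extent. Together they took 0.479% of the reads of SCN replicate 2, 1.48% of those of SD replicate 3 and 1.98 to 4.18% in the other 7 libraries.

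**Figure D2:**
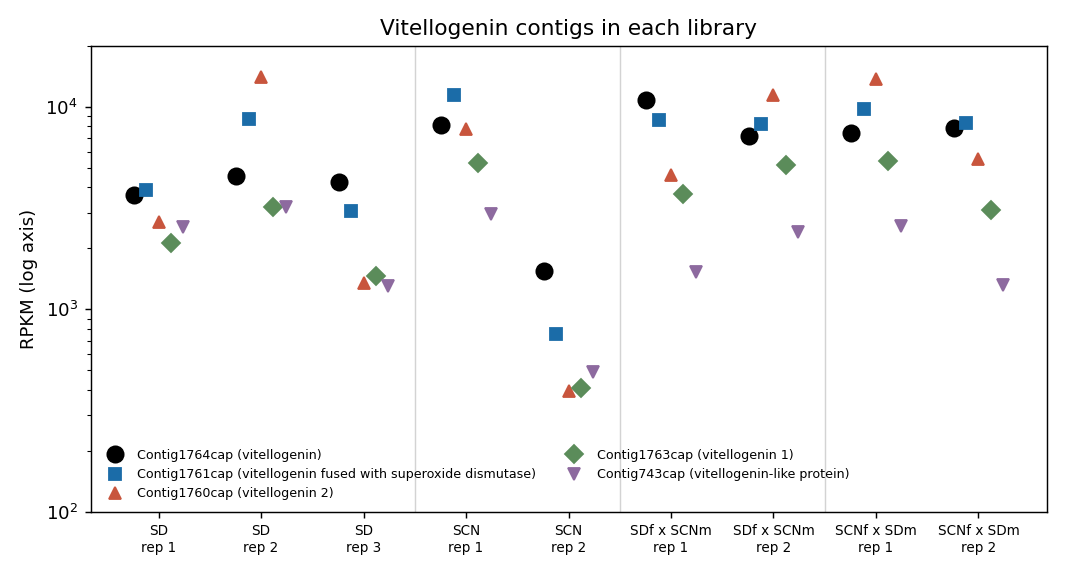
RPKM (log axis) of the 5 vitellogenin contigs in each library, 1 marker per contig and library, with markers shifted sideways so that none is hidden. All 5 are lowest in SCN replicate 2, and Contig1760cap spreads most, from 397 to 14118.

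None of the 4 other contigs passed the threshold in any of the 5 comparisons, and none had a hybrid range wholly above or below the SD range. Their log2 differences of hybrids from the midparent were 1.64 for Contig1760cap (SE 0.93), 1.23 for Contig1761cap (SE 0.72), 1.25 for Contig1763cap (SE 0.66) and 0.21 for Contig743cap (SE 0.55), with limma adjusted p from 0.380 to 0.882. Without SCN replicate 1, where 21.7% of all features passed, Contig1760cap, Contig1761cap and Contig1763cap passed as well. Without SCN replicate 2 the value of Contig743cap was -0.44. For SD minus SCN the log2 differences were 1.08, 0.68, 0.55 and 0.87 in the same order, none past the threshold, and all 4 turned negative without SCN replicate 2 (-1.06, -1.29, -1.29 and -0.43). Without SCN replicate 1, Contig1761cap, Contig1763cap and Contig743cap passed as higher in SD, in a setting where 22.4% of all features passed.

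Within a library the vitellogenin contigs were not in a fixed proportion. Contig1760cap stood at 0.256 times the level of Contig1764cap in SCN replicate 2 and at 3.09 times in SD replicate 2, a 12.1-fold range of the ratio. The ratio of Contig1761cap ran from 0.485 to 1.91, that of Contig1763cap from 0.264 to 0.728 and that of Contig743cap from 0.142 to 0.701. Contig1764cap made up 13.5% of the summed RPKM of the 5 contigs in SD replicate 2 and 43.1% in SCN replicate 2. The level of vitellogenin in a pool, and the order of the pools, therefore depends on the contig that is read: SD replicate 2 was sixth of 9 by Contig1764cap and first by Contig1760cap.

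**Figure D3:**
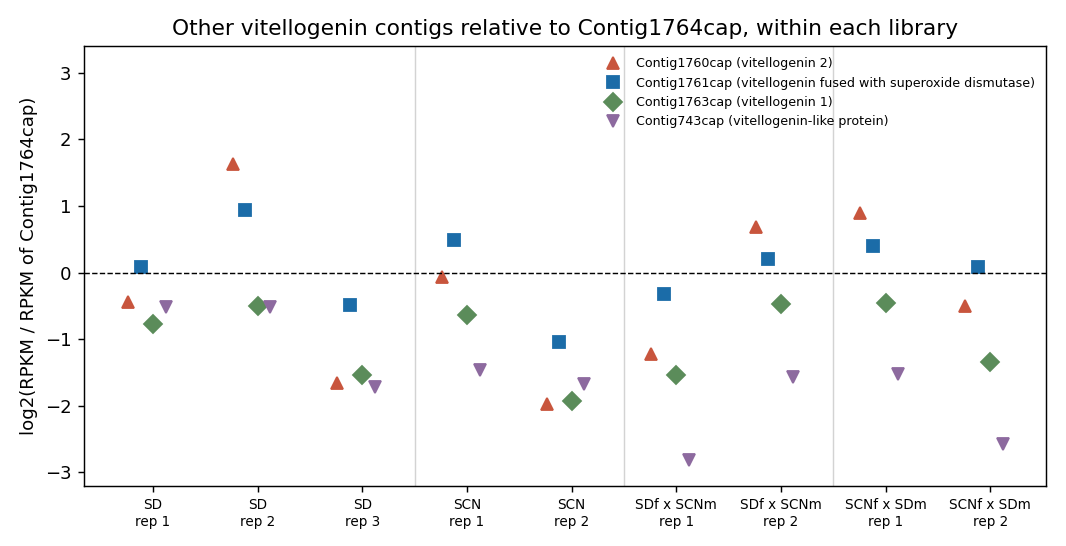
log2 ratio of each other vitellogenin contig to Contig1764cap within the same library, with the dashed line at equal RPKM. Contig1760cap moves from 0.256 times to 3.09 times Contig1764cap, and Contig743cap lies below the line in all 9 libraries.

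Across the 9 libraries, Pearson's r of log2(RPKM + 1) between Contig1764cap and the others was 0.92 for Contig1761cap, 0.90 for Contig1763cap, 0.76 for Contig1760cap and 0.59 for Contig743cap. These are descriptions over 9 points that share runs, depth and groups, and the median over all 13757 other features was 0.33. Without SCN replicate 2 they were 0.75, 0.70, 0.39 and -0.19. Contig1760cap, Contig1761cap and Contig1763cap had an r of 0.94 to 0.98 with each other, above their r with Contig1764cap. Without SCN replicate 2 their r with each other was 0.86 to 0.92.

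The receptor that takes vitellogenin into the oocyte, Contig1515cap, ran opposite to Contig1764cap, but less or not at all so to the other vitellogenin contigs. It stood at 444, 559 and 412 RPKM in SD, 275 and 387 in SCN, 298 and 343 in SDf x SCNm, and 280 and 215 in SCNf x SDm. All 4 hybrid libraries lay below all 3 SD libraries, as they did for 13.3% of all features. The log2 difference of hybrids from the midparent was -0.48 (SE 0.26, limma adjusted p = 0.390) and did not pass. Its r with Contig1764cap was -0.59 over 9 libraries and -0.78 without SCN replicate 2. With Contig1760cap, Contig1761cap, Contig1763cap and Contig743cap its r was -0.19, -0.37, -0.37 and 0.10 over 9 libraries. Without SCN replicate 2 these were -0.12, -0.47, -0.46 and 0.40. A second contig named vitellogenin receptor-like, Contig56638, was far less abundant, at 4.04 to 4.63 RPKM in SD, 19.1 and 2.80 in SCN, and between 7.09 and 9.18 in the hybrids, with r = 0.76.

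The yolk and eggshell list, 23 features with Contig1764cap among them, further held 13 chorion peroxidases (enzymes that harden the eggshell in insects), 2 vitelline membrane outer layer proteins and a chorion b-zip transcription factor. Of the 23, 0 passed in any of the 5 limma comparisons over all 9 libraries. This count depended on the libraries in the fit. For hybrids minus SD, an SCN library does not enter the difference, only the spread that the test uses. The list median of that difference was 0.29 over all 9 libraries, without SCN replicate 1 and without SCN replicate 2. The log2 difference of Contig7903 was 2.10 without either SCN replicate 1 or SCN replicate 2. The calls without SCN replicate 2 therefore do not show that this library moved the difference. For hybrids minus SD, 4 passed as higher and 1 as lower without SCN replicate 2 (6.87% of all features higher and 2.74% lower), the peroxidases Contig7903, Contig9359, Contig9711 and Contig19911 and, lower, Contig3089. Without both run 3 libraries 3 passed as higher (4.71% of all features), Contig7903, Contig9359 and Contig9711. For hybrids minus midparent, 9 of 23 passed without SCN replicate 1, beside the 21.7% of all features. Against the midparent 18 of 23 had a positive difference, beside 8546 of all 13758 features. Their median log2 was 0.40 beside 0.15 over all features. Without both run 3 libraries 11 of 23 were positive and the median was -0.02.

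The hybrid range lay wholly above the SD range for 6 of the 23: Contig1764cap, Contig56638 and the peroxidases Contig7903, Contig9359, Contig9711 and Contig19911. It lay wholly below for 3, the receptor Contig1515cap and the peroxidases Contig137cap and Contig3089. Over all features the shares were 16.5% above and 13.3% below. Contig7903 stood at 21.0, 11.9 and 5.43 RPKM in SD, 38.2 and 5.48 in SCN, 31.7 and 51.5 in SDf x SCNm, and 66.2 and 65.1 in SCNf x SDm. Its log2 difference from the midparent was 1.91 (SE 0.53, limma adjusted p = 0.126). The values were 1.88 for Contig9359 (SE 0.64) and 1.45 for Contig9711 (SE 0.40), neither past the threshold. Without SCN replicate 1 all 3 passed (limma adjusted p from 0.00682 to 0.0151), together with 21.7% of all features. Contig9711 also passed for hybrids minus SD with median-of-ratios scaling (limma adjusted p = 0.0462) and with quantile normalization (limma adjusted p = 0.0397). In these 2 settings 318 and 426 of all 13758 features passed as higher, against 209 in the fit as reported. The most abundant peroxidase, Contig137cap, stood at 992 to 1233 RPKM in SD, 619 and 684 in SCN, and between 589 and 848 in the hybrids.

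The remaining yolk and eggshell members had overlapping hybrid and SD ranges. The transcription factor Contig8170 stood at 143 to 207 RPKM in SD, 61.7 and 99.0 in SCN, and between 91.8 and 148 in the hybrids, so that both SCN libraries lay below all 3 SD libraries. The vitelline membrane proteins coat the egg in birds. Contig12543 stood at 9.99 to 17.2 RPKM in SD, 24.1 and 30.1 in SCN, and between 9.40 and 16.3 in the hybrids, with both SCN libraries above the other 7. Contig57975 stood at 2.41 to 7.76 RPKM over the 9 libraries. The other 7 peroxidases with overlapping hybrid and SD ranges include 2 below 10 RPKM in every library, Contig17805 and Contig19378.

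Lists named for the female germline, for sperm and axoneme, and for other tissues were set beside these levels. The oocyte and female germline list (41 features) had median log2(RPKM + 1) levels of 5.68 to 5.70 in SD, 5.13 and 5.25 in SCN, and between 4.91 and 5.39 in the hybrids. Relative to the median of all features in the same library, the list was highest in SCN replicate 2 (1.14). On that scale it stood at 0.95 to 1.07 in SD, 0.46 in SCN replicate 1 and 0.28 to 0.60 in the hybrids. Between hybrids and midparent 0 of 41 passed and 14 were positive, beside 8546 of all 13758 features positive. The list median was -0.20 beside 0.15 over all features. The hybrid range lay wholly below the SD range for 19 of 41, and for 13.3% of all features. The median r with Contig1764cap was 0.01 over this list and 0.69 over the yolk and eggshell list, both beside 0.33 over all features. Contig1764cap and the median of the oocyte genes thus lay in opposite order between SD and hybrids. The other 4 vitellogenin contigs had overlapping hybrid and SD ranges, and Contig743cap was lower in the hybrids (log2 -0.23). The order was not particular to oocyte genes. In the cell division list 52 of 71 were lower and 19 higher in hybrids than in SD (median log2 -0.34). Over all features 6701 of 13758 were lower and 7057 higher. Of these 71, 25 lay wholly below SD and 6 wholly above, beside 13.3% and 16.5% of all features. Of the 41 oocyte features, 1 was higher in SD than in SCN, nanos homolog 2 (Contig4701, a regulator of germ cells in many animals). Its log2 difference was 3.04 (limma adjusted p = 0.0498), beside 0.174% of all features higher in SD. It passed in 4 of its 19 alternatives, and neither without SCN replicate 2 nor without both run 3 libraries.

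The sperm, testis and axoneme list (55 features) had median levels of 3.12 to 3.45 in 8 libraries and 2.13 in SCN replicate 2. In it 1 of 55 rose above the midparent, Contig14540, named for intraflagellar transport protein 122, with a log2 difference of 2.43 (limma adjusted p = 0.0237), beside 0.792% of all features that rose. It passed in 12 of its 19 alternatives, among them those without SCN replicate 2 and without both run 3 libraries. The median r of the list with Contig1764cap was 0.58, with 49 of 55 positive. Over all other features the median r was 0.33, with 9297 of 13757 positive. Whether the list follows the males in a pool was not tested. SCN replicate 2, lowest for vitellogenin, was also lowest for this list. In that library the median over all features was 4.11 against 4.61 to 4.79 elsewhere. The part of this library's general shift in its vitellogenin level was not tested.

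The cuticle and chitin list (90 features), whose genes are used in growth and molting, had median levels of 4.21 to 5.04 in SD, 5.97 and 4.03 in SCN, and between 6.0 and 6.33 in the hybrids. SCN replicate 2 was lowest, but relative to the median of all features in the same library SD replicate 3 was lowest (-0.53), SCN replicate 2 (-0.09) was near SD replicate 2 (0.01), and SCN replicate 1 and the hybrids lay between 1.21 and 1.70. The median r with Contig1764cap was 0.66. Against the midparent 11 of 90 rose and 0 fell, beside 0.792% of all features that rose, and 84 of 90 were positive with a median of 1.15. Over all features 8546 of 13758 were positive, with a median of 0.15. Examples were Contig19526 (obstructor, log2 3.26), Contig31846 (cuticle protein, 3.01) and Contig977cap (larval cuticle protein lcp-17, 2.77). The calls depended on single libraries and were lost without SCN replicate 2. Without both run 3 libraries, which also leaves out SCN replicate 2, nearly as many members passed as over all 9 libraries. With 1 SCN library left, the list median was 0.89 without SCN replicate 2 and 0.77 without both run 3 libraries. Without SCN replicate 1 it was 1.70. Over all features the medians in these settings were 0.011, 0.016 and 0.31. All stages were pooled, and the part of stage make-up in the vitellogenin level was not tested.

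**Figure D4:**
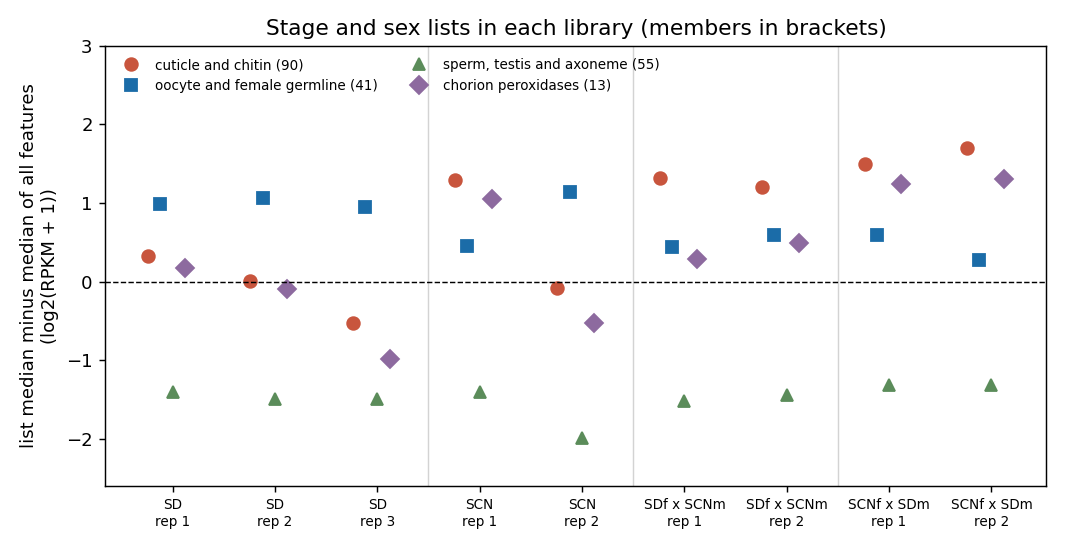
Median log2(RPKM + 1) of 4 lists in each library, minus the median of all features in the same library (dashed line at 0). Cuticle genes (circles) are high in the hybrids and SCN replicate 1 (1.21 to 1.70), lower in SCN replicate 2 (-0.09) and lowest in SD replicate 3 (-0.53), while oocyte genes (squares) are higher in SD and SCN replicate 2 than in the hybrids.

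In the other 9 lists few features passed. The pathways that make and handle yolk gave 0 called of 17 large lipid transfer proteins and lipoprotein receptors, 0 of 18 yolk processing peptidases, 0 of 66 genes of endocrine control and 0 of 28 of the secretory pathway, in SD minus SCN and in hybrids minus midparent alike. Their medians for hybrids minus midparent were 0.15, 0.18, 0.20 and 0.084, beside 0.15 over all features. Among their most abundant members, cathepsin L (Contig1509cap, a lysosomal protease of the kind that digests yolk in many animals) stood at 149 to 323 RPKM in SD, 276 and 1774 in SCN, and between 153 and 425 in the hybrids. The cytochrome P450 Contig2293, named for an enzyme of ecdysteroid hormone synthesis in insects, stood at 129 to 167 RPKM in SD, 125 and 118 in SCN, and between 77.7 and 118 in the hybrids. The chaperone calreticulin (Contig458) stood at 767 to 2237 RPKM in SD, 1718 and 451 in SCN, and between 1344 and 1872 in the hybrids. Muscle (49) and cell division with core histones (71) also gave 0 in both. Of 73 lipid synthesis genes 1 rose above the midparent, the phospholipase A2 Contig41004 (log2 1.93), and of 69 ribosomal proteins 1 rose, RpS21 (SD_Contig62709, log2 2.01), beside 0.792% of all features. Contig41004 passed in 8 of its 18 alternatives, and not without SCN replicate 2. RpS21 passed in 5 of 19, and neither without SCN replicate 2 nor without both run 3 libraries. Of 64 digestive peptidases, 2 were higher and 1 lower in SD than in SCN: the chymotrypsin-like Contig1226cap (log2 4.00), the aminopeptidase N-like Contig69cap (log2 3.56) and the nas-13-like metalloproteinase Contig2534 (log2 -2.07). Over all features 0.174% were higher and 0.254% lower. Contig1226cap passed in 18 of its 19 alternatives, Contig2534 in 10 and Contig69cap in 6. Contig69cap and Contig2534 did not keep their calls without both run 3 libraries, where 1 SCN library is left. There the list median for SD minus SCN was -0.65, beside -0.025 over all features.

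The features whose pattern over the 9 libraries was most like that of Contig1764cap were named by Pearson's r of log2(RPKM + 1). The closest was Contig21826, an intraflagellar transport protein 52 homolog (r = 0.99, mean 7.35 RPKM), followed by Contig39471, a cuticular protein (r = 0.98), and Contig26270, a heparan sulfate 3-O-sulfotransferase 1-like enzyme (r = 0.97), whose 9 libraries fell in the same order as those of vitellogenin. The next were Contig15616, Contig77370 (without a name), Contig21642, Contig19495, Contig54283, Contig3256 and Contig10539, all at r = 0.97. The most abundant of the 10 was Contig3256, a heat shock cognate 70 chaperone (mean 741 RPKM). It stood at 553, 653 and 448 RPKM in SD, 983 and 211 in SCN, 982 and 879 in SDf x SCNm, and 952 and 1008 in SCNf x SDm.

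A high r was common in these libraries, with 1186 of 13757 features (8.62%) above 0.8, and the 10 closest rested partly on 1 library. Of the 10 closest, 1 stayed among the 10 closest by rank correlation, 2 without SCN replicate 2 and 1 on deviations from the group means. The nearest vitellogenin, Contig1761cap, ranked 135 of 13757. The most opposite named features were Contig1643cap, amyloid protein-binding protein 2 (r = -0.97), Contig1237cap, a DnaJ homolog (r = -0.97), and Contig2957, mitochondrial aconitase (r = -0.95). Contig35870 and Contig9349 followed at r = -0.95.

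**Figure D5:**
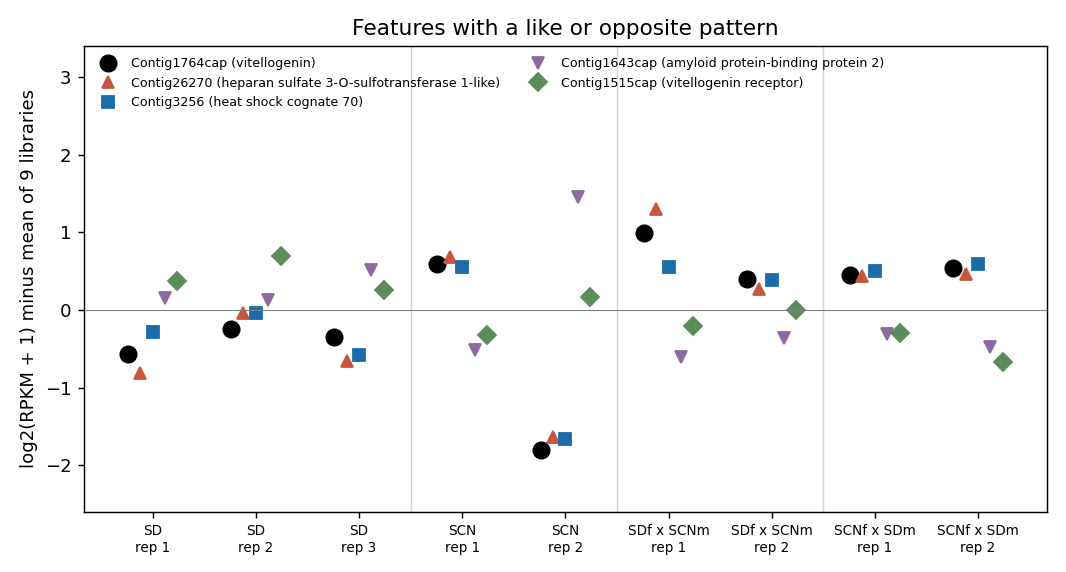
log2(RPKM + 1) of each feature minus its own mean over the 9 libraries. Contig26270 and Contig3256 follow vitellogenin, with their lowest value in SCN replicate 2, where Contig1643cap is highest, and the vitellogenin receptor Contig1515cap is highest in SD replicate 2.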

How the data were processed

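Per the file headers, the authors deposited RPKM (reads scaled by contig length and library depth) in 1 table per library, for 13758 features with predicted protein names where given. No source used here says how reads were aligned, counted or filtered. No contig identifier was found in the RefSeq gene table (assembly Tcal_SD_v2.1), and no coordinates or sequences are printed. Whole reads were recovered from the steps of the RPKM values for 99.7% of features (99.97% of values within 0.05 read), with an added constant of 1.12 to 18.4 reads per library. These reads gave depth, coding length (91.6% multiples of 3) and the values with the constant taken off.

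Tests used limma 3.58.1 in R 4.3.3, with log2(RPKM + 1) as the response, a mean-variance trend, 4 group means over 9 libraries and Benjamini-Hochberg adjustment over all features at 0.05. Fold changes on this scale understate changes of low features. The tests were also run on simulated data with the same spread in every group. That check does not cover groups of unequal spread, such as SCN and SD for Contig1764cap. Named features are Contig1764cap, the whole yolk and eggshell list, up to 3 called members of each other list or else abundant ones, and the features with the highest and lowest r. The 13 lists were matched on protein names, and false matches were removed by name. The contig, the lists and the tests were chosen with earlier results of these data known. Replicates of a group differed by more than counting noise (chi-square per feature 15.2 to 76.2).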

Additional observations from a re-analysis of the deposited data

How the results depend on the processing

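The SD minus SCN log2 difference of Contig1764cap turned negative with median-of-ratios scaling (-0.064) and without both run 3 libraries (-0.997), and ran from -0.98 to 1.42 when single libraries were left out. Leaving out 1 library gave 0.49 to 1.69 for hybrids minus midparent, 0.83 to 1.13 for hybrids minus SD, 0.0056 to 2.40 for hybrids minus SCN, -0.094 to 0.50 between the crosses and 0.74 to 1.34 (exact permutation p from 0.0286, the smallest possible, to 0.143) for hybrids minus parents. The only passes of Contig1764cap were those without SCN replicate 1. The planned count models on recovered reads were tried and their values are left out, because the deposited unit is RPKM. They changed no call of Contig1764cap but turned the sign of its SD minus SCN difference. The model with median-of-ratios size factors called more features in all, the peroxidases Contig7903 and Contig9711 above the midparent among them. The share of all features it called is not reported here, so these calls are not read as a result. Over all other planned settings the 3 hybrid comparisons kept their sign and stayed above the threshold. For Contig1761cap and Contig1763cap, SD minus SCN was -0.98 and -1.01 without the run 3 libraries, and for Contig1760cap and Contig743cap it was -0.33 and -0.056. Left out singly, libraries moved it from -1.06 to 3.22 (Contig1760cap), -1.29 to 2.64 (Contig1761cap), -1.29 to 2.39 (Contig1763cap) and -0.43 to 2.17 (Contig743cap). Hybrids minus midparent of Contig743cap was -0.16 with quantile normalization, -0.12 with the arithmetic midparent, -0.63 without the run 3 libraries and -0.44 to 0.86 with single libraries left out. The causes were not tested.

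Counts of features passing ranged from 10 to 3085 (SD minus SCN, 59 as reported), 0 to 2985 (hybrids minus midparent, 110), 15 to 1322 (hybrids minus SD, 220) and 0 to 3959 (hybrids minus SCN, 2). Replicate numbers did not pair the libraries: same-number correlations had mixed signs, from -0.55 to 0.36. With the replicate block Contig1764cap stood at 0.20, 1.10, 1.002, 1.2 and 0.20 over the 5 comparisons, none past the threshold, and 10, 55, 31, 2 and 0 features passed. Among the 4 hybrid libraries alone, a crossed pairing set replicate 1 of each cross with replicate 2 of the other. It called 41 of 13758 features between the crosses, against 0 with the numbers as given and 0 without a block. This pairing was added after the data were seen, in which same-number libraries of the crosses correlated at -0.55. Its count therefore cannot be read as a test of the crosses. Depth limits Contig1764cap little, with a counting error of 1.78% at most, while 3 of the 4 groups hold only 2 libraries.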
